A study of Mus musculus with 28 samples.

Results

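The genes described here are Rfx1 to Rfx7, of the RFX family of transcription factors, and Foxj1, several of which switch on cilium genes. They were chosen by name from the deposited table, and all 8 were found by Entrez ID among its 19421 genes and passed the filter on low values that left 16837 genes. RNA was measured by RNA-seq in 28 libraries from embryoid bodies (EBs), which are floating aggregates of differentiating mouse embryonic stem cells. The 7 lines, all made from the A2loxCre parental line, carry a cassette that doxycycline (Dox) switches on and that encodes the fluorescent protein Venus with Atoh1 (iAtoh1), Gfi1 (iGfi1), Pou4f3 (iPou4f3), Gfi1 with Atoh1 (iG+A), Gfi1 with Pou4f3 (iG+P), Pou4f3 with Atoh1 (iP+A) or all 3 factors (iGPA). Dox at 2 µg/ml was given from day 4 for 48 h and Venus+ cells were sorted at day 6, whereas the No Dox samples were whole EBs of the same day, untreated and unsorted. As only the Dox samples were sorted, sorting for Venus cannot be told apart from Dox within a line. Each line and condition has 2 replicates, which were different clones of the line. Atoh1, Gfi1 and Pou4f3 are the factors of inner ear hair cells, but the cells are EB cells that express them from the cassette.

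RFX proteins bind a DNA element called the X-box through a winged-helix domain, and many genes of the ciliary axoneme, of intraflagellar transport and of the transition zone carry an X-box near their start. Foxj1, a forkhead protein, is the switch for motile cilia and acts together with RFX factors. Rfx3 and Rfx2 serve nodal, ependymal and sperm cilia, Rfx1 and Rfx3 together are needed for the survival of outer hair cells, Rfx4 acts in the neural tube and brain, Rfx5 forms a complex with Rfxap and Rfxank at genes of MHC class II, and Rfx6 acts in gut endoderm and in the endocrine pancreas.

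The promoters of these genes are shown first because 3 of them share a pattern that contains part of the X-box. Windows of 300 bases around the RefSeq gene start were available for Rfx1 to Rfx7, with 2 windows for Rfx4, and each was placed on NCBIM37, the build of the deposited data, by a single exact match. They were searched on both strands for GTTGCC, which is part of the X-box, for the forkhead core GTAAACA and for the E-boxes CAGCTG and CAGATG, the class of element that bHLH proteins such as Atoh1 bind. GTTGCC was found in the windows of Rfx1, Rfx2, Rfx3 and Rfx6, where it occurs in 12.4% of 32544 mouse promoter windows. In Rfx1, Rfx2 and Rfx3 it is preceded by AAC and 1 further base. The longer sequence AACNGTTGCC, which was searched for after the windows had been seen and contains GTTGCC, stands in 44 of the 32544 windows (0.135%), of which these are 3. Capitals below mark AACNGTTGCC, or GTTGCC on the opposite strand (GGCAAC) in Rfx6, and the windows lie at chr8:86590485-86590784 (plus strand, Rfx1), chr17:56970382-56970681 (minus strand, Rfx2), chr19:28085607-28085906 (minus strand, Rfx3) and chr10:51405074-51405373 (plus strand, Rfx6).
Rfx1: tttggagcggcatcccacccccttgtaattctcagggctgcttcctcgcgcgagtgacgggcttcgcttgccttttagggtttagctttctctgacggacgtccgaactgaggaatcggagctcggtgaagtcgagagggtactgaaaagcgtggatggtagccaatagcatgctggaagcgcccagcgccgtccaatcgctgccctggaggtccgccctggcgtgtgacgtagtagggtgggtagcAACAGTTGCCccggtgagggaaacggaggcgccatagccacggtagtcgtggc
Rfx2: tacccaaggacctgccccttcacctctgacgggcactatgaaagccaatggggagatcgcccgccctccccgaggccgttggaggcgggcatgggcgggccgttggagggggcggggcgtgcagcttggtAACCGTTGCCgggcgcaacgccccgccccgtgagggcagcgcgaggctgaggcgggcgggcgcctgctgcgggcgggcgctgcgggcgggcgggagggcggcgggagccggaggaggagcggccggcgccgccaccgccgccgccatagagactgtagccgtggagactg
Rfx3: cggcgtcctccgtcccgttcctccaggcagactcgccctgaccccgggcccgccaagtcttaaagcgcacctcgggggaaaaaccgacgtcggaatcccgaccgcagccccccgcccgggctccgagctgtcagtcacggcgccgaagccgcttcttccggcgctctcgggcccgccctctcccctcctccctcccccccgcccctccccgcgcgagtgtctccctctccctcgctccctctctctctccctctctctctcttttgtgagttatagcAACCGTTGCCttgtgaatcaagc
Rfx6: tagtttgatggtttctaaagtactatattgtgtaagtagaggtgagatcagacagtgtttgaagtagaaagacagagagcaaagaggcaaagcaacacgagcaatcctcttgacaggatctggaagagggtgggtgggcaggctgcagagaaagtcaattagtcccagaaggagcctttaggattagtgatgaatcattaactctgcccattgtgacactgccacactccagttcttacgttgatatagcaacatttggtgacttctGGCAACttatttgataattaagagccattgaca
Within these windows, counted from 1 at the 5′ end, the match runs from base 248 to 257 in Rfx1, 131 to 140 in Rfx2 and 278 to 287 in Rfx3. The E-box CAGATG was found in 1 of the 2 windows of Rfx4 (17.1% of all windows hold it), and neither CAGCTG (16.4%) nor GTAAACA (3.66%) was found in a window of Rfx1 to Rfx7. These matches are letters in a window and say nothing of what binds there.

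The file gives no raw totals, and the depth estimated from the steps between its lowest values was 30300000 to 48000000 reads per library. The cassette genes followed the labels. In the Dox libraries of the lines that carry them they lay at 12816 to 21242 normalized counts for Atoh1, 8119 to 12487 for Gfi1 and 4694 to 19883 for Pou4f3, and their highest level in any No Dox library was 120.1, 119 and 72.6. Each also rose with Dox (limma adjusted p below 0.05) in lines that do not carry it, to far lower levels. Atoh1 rose by 2.04 in iGfi1 and 2.70 in iG+P, Gfi1 by 1.55 in iPou4f3 and 1.65 in iP+A, and Pou4f3 by 2.21 in iAtoh1 and 3.11 in iG+A (log2). Their highest levels there were 32.5, 113 and 101. Atoh1 in iPou4f3, Gfi1 in iAtoh1 and Pou4f3 in iGfi1 did not pass. Below, lines with or without a factor are named by their cassettes. Transgene and endogenous RNA are not separated in these counts.

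Levels of different genes were compared as normalized counts per kb of the longest annotated transcript. In No Dox EBs the order by median over 14 libraries was Rfx7 (557 per kb), Rfx1 (297), Rfx2 (176), Rfx3 (167), Rfx5 (148), Rfx6 (56.9), Foxj1 (38.1) and Rfx4 (16.8), with Rfx8, the only other family member, at 16.6. The ranges of Rfx2 (96.3 to 272), Rfx3 (135 to 212) and Rfx5 (138 to 169) overlapped, so that these neighbours did not differ beyond their spread. The ranges also overlapped at each further step of the order down to Rfx8, although library by library Foxj1 lay above Rfx4 in 14 of 14 and Rfx5 above Rfx6 in 13 of 14. Rfx7 (437 to 625) lay above all other members in every No Dox library. With Dox, the median of Rfx3 was 257 per kb against 130 for Rfx2, and that of Rfx6 was 12.2 against 18.7 for Rfx4, with ranges that overlapped in both pairs. These medians pool the lines. By group means per kb with Dox, Rfx2 lay above Rfx3 in iGfi1, and Rfx6 lay above Rfx4 in iAtoh1 and iPou4f3.

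**Figure D1:**
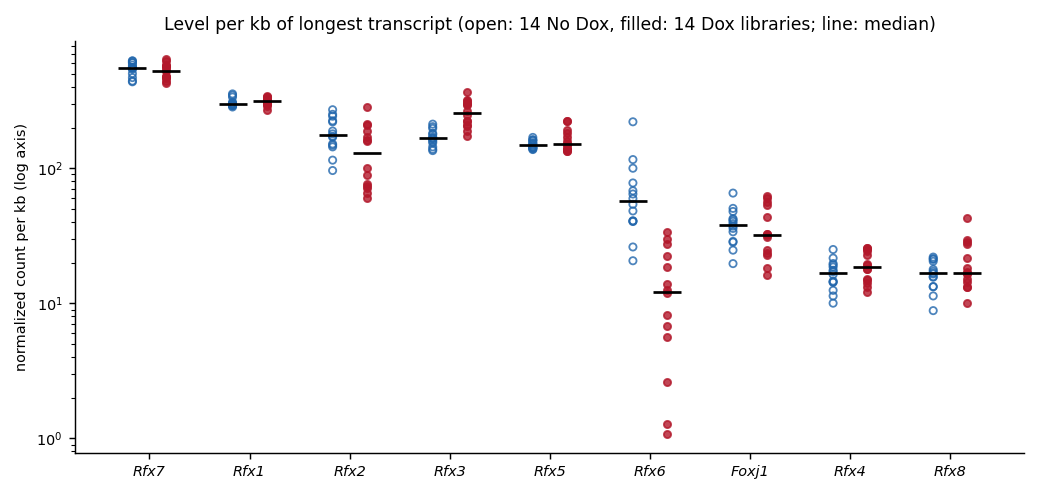
Level of each gene per kb of its longest transcript (log axis), with 1 point for each of 14 No Dox (open) and 14 Dox (filled) libraries and a line at the median. Rfx7 and Rfx1 have the highest medians, whereas the Dox libraries of Rfx6 spread down to 1.08 per kb.

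By the adjusted p alone, Rfx6 fell in 4 of the 7 lines, Rfx2 fell in 3, Rfx3 rose in 3 and Rfx5 rose in 2, while Foxj1, Rfx1, Rfx4 and Rfx7 passed in no line. A gene was counted past the threshold where its limma adjusted p was below 0.05 and its log2 fold change reached 1.5 up or down, and a second count used the adjusted p alone. Falls past the threshold were found for 1 of 8 members in iGfi1, iG+P and iGPA, for 2 of 8 in iG+A and for none in iAtoh1, iPou4f3 and iP+A. The share of all genes that fell past the threshold was 2.67% in iGfi1, 5.36% in iG+P, 5.31% in iGPA and 4.95% in iG+A, and it was 2.52% in iAtoh1, 0.606% in iPou4f3 and 2.58% in iP+A. No member rose past the threshold. The share of all genes that did was 2.89% for iAtoh1, 2.15% for iGfi1 and 1.47% for iPou4f3 among the lines with 1 factor, and 8.65% for iGPA, 7.35% for iG+A, 5.16% for iG+P and 4.7% for iP+A.

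By the adjusted p alone, 12 of the 56 values (8 members in 7 lines) passed, 5 of them upward and 7 downward. One member rose in iAtoh1 (11.4% of all genes), in iPou4f3 (3.41%) and in iGPA (23.7%), 2 rose in iP+A (13.8%), and none rose in iGfi1 (12.4%), iG+A (21.6%) or iG+P (16.9%). One fell in iAtoh1 (11.7%), iGfi1 (14.1%), iG+P (16.9%), iP+A (11.1%) and iGPA (22.3%), 2 fell in iG+A (19.7%) and none in iPou4f3 (1.31%). With 8 genes in the set these counts lie near the shares of all genes, and what follows rests on the single genes. With the replicate number as a block 19 of the 56 values passed, and the 7 that were gained are given below at each gene. The fold changes below are on the log2(normalized count + 1) scale, and the fit gives each gene 1 standard error (SE) for all lines.

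**Figure D2:**
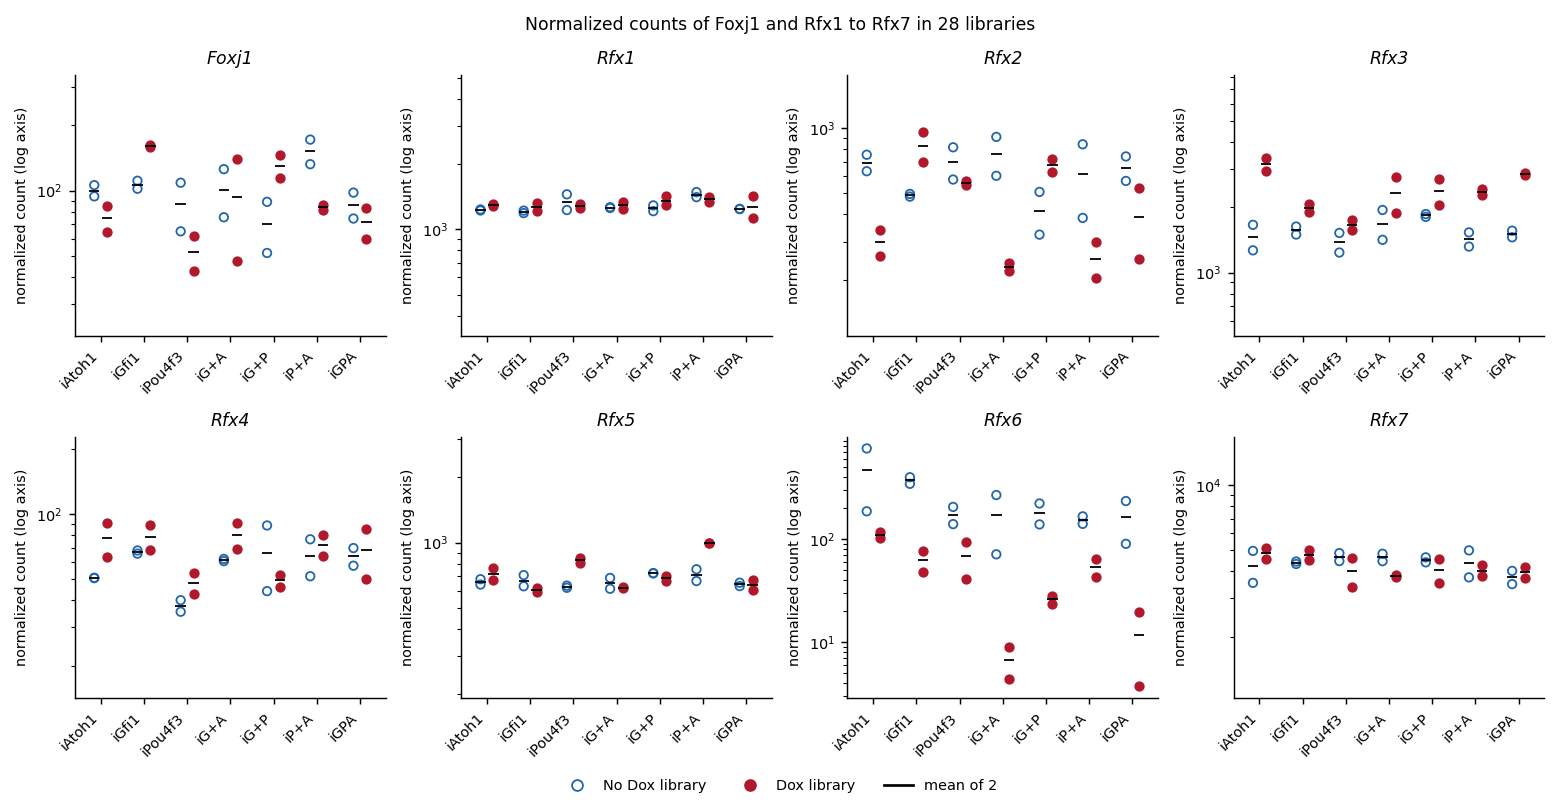
Normalized counts (log axis) of the 8 genes in the 7 lines, with open points for the 2 No Dox libraries, filled points for the 2 Dox libraries and a line at their mean. The Dox points of Rfx6 lie below the No Dox points in all 7 lines, and those of Rfx3 lie above them in 6.

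Foxj1, the switch for motile cilia, was low in every library and did not pass the test in any line. It stood at 51.6 to 172 normalized counts without Dox (median 100.04) and at 42.7 to 163 with Dox (median 84.3), and the highest fold change was 0.92 in iG+P (SE 0.41, adjusted p = 0.0897). In iG+P EBs the No Dox libraries held 51.6 and 88.8 and the Dox libraries 146 and 114, and in iGfi1 EBs they held 111 and 102 against 158 and 163. In both of these lines, which carry Gfi1 without Atoh1, the Dox libraries lay above the No Dox libraries. They lay below them in iAtoh1 (94.2 and 106 against 85 and 64.7), in iPou4f3 (109 and 65 against 61.9 and 42.7) and in iP+A (132 and 172 against 86.2 and 81.8), which lack Gfi1, and the libraries overlapped in iG+A and iGPA. The iG+P value passed with the replicate number as a block (adjusted p = 0.0394) and without Dox replicate 1 (0.0348) or 2 (0.0353) of iG+A, and it ran from 0.54 to 1.31 without any 1 library, the ends being without No Dox replicate 1 and 2 of iG+P. Tested across lines, the mean Dox effect on Foxj1 was higher by 0.90 (SE 0.31, adjusted p = 0.0291) in the 4 lines with Gfi1 than in the 3 without it. That call was lost under quantile normalization (0.77, adjusted p = 0.0503) and without any 1 of 8 libraries (0.78 to 0.85, adjusted p 0.05002 to 0.0692), which were No Dox replicate 1 of iPou4f3, iG+A, iG+P and iGPA, No Dox replicate 2 of iP+A, Dox replicate 1 of iGPA and Dox replicate 2 of iAtoh1 and iPou4f3. Of the node and notochord markers, the node being a site where Foxj1 drives motile cilia, Noto was at 0 to 3.87 normalized counts in all libraries, whereas T (12.8 to 482) and Chrd (100.4 to 733) were present in all. Shh, also on this list, ran from 4.6 to 103 without Dox and from 0.979 to 628 with it.

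Rfx2, which serves motile cilia and spermatids, fell in 3 of the 4 lines that carry Atoh1. In iG+A EBs the No Dox libraries held 911 and 603 normalized counts and the Dox libraries 220.3 and 239 (log2 fold change −1.69, SE 0.36, adjusted p = 0.00107). In iAtoh1 EBs they held 754 and 633 against 339 and 256 (−1.22, adjusted p = 0.0192), and in iP+A EBs 385 and 842 against 204 and 297 (−1.21, adjusted p = 0.019). The Dox libraries lay below the No Dox libraries in all of these lines, with the widest No Dox spread in iP+A. In iGPA EBs 571 and 740.0 stood against 249 and 532, a change of −0.83 that did not pass (adjusted p = 0.0653). It passed with the replicate number as a block (0.00965), under quantile normalization (0.0213), against all untreated libraries (0.0482) and without No Dox replicate 1 (0.0374) or 2 (0.0375) of iP+A. Without Dox replicate 2 of iGPA it was −1.38 (adjusted p = 0.01004), and without Dox replicate 1 it was −0.29 (0.605).

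In the lines without Atoh1, Rfx2 did not pass. Rfx2 stood at 483 and 497 against 955 and 697 with Dox in iGfi1 (0.73, adjusted p = 0.141) and at 323 and 508 against 629 and 719 in iG+P (0.73, adjusted p = 0.13), and both passed with the block (adjusted p = 0.0288 and 0.0249). The iGfi1 value also passed in a fit of that line alone (adjusted p = 0.0477). In iPou4f3 the Dox libraries (568 and 545) lay just below the No Dox libraries (815 and 579), with a change of −0.30 (adjusted p = 0.72). The order of the Dox groups by mean was iGfi1 (826 ± 182, SD, n = 2), iG+P (674 ± 63.8), iPou4f3 (557 ± 16.4), iGPA (390.5 ± 200.2), iAtoh1 (298 ± 58.7), iP+A (250.5 ± 66.1) and iG+A (229.7 ± 13.3). The 3 lines without Atoh1 thus lay above the 4 with it, and the libraries of iG+P, iPou4f3 and iGPA did not overlap, while those of the last 4 groups did from one to the next. The fall in iAtoh1 was lost without its No Dox replicate 1 (−1.10, adjusted p = 0.111) or its Dox replicate 2 (−1.02, adjusted p = 0.136). That in iP+A was lost without its No Dox replicate 2 (−0.65, adjusted p = 0.289) or its Dox replicate 1 (−0.94, adjusted p = 0.18), and in a fit of that line alone (adjusted p = 0.138).

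Markers of embryonic blood changed in 6 of the 7 lines. The list of 8 includes Gata1, Klf1 and the embryonic globin Hbb-y, and by the adjusted p alone all 8 fell in iAtoh1, 7 of 8 fell in iG+A and in iP+A and 5 of 8 fell and 1 rose in iGPA. Their summed level was 185845 to 208672 without Dox and 16216 to 20356 with Dox in iAtoh1, and 394439 to 508304 against 47458 to 56351 in iG+A. It was 106878 to 123421 against 14031 to 32126 in iP+A and 268953 to 449892 against 28837 to 51000.3 in iGPA. In iGfi1 and iG+P, where Rfx2 was higher with Dox, 5 of 8 rose (and 2 fell in iG+P), and the median log2 fold change of the 8 was 1.05 and 1.01. The summed levels overlapped (182129 to 266334 against 204982 to 380151 in iGfi1, 70817 to 142400 against 42051 to 95395 in iG+P), and that of iG+P reached lower with Dox. In iPou4f3 none passed, with summed levels of 393832 to 504328 without Dox and 258048 to 273077 with it. In bulk RNA, fewer cells of a type and less RNA per cell cannot be told apart. The Dox libraries are sorted Venus+ cells and the No Dox libraries whole EBs, and the part of the sort and of blood cells in the change of Rfx2 was not tested.

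Rfx3, which drives nodal and ependymal cilia and islet development, rose in 3 lines, all of which carry Atoh1. In iAtoh1 EBs the No Dox libraries held 1659.5 and 1266 normalized counts and the Dox libraries 3375 and 2938 (1.12, SE 0.18, adjusted p = 0.000231). In iGPA EBs 1559.5 and 1453 stood against 2804 and 2878 (0.92, adjusted p = 0.000426), and in iP+A EBs 1531 and 1318 against 2426 and 2267 (0.72, adjusted p = 0.00649). The Dox libraries lay above the No Dox libraries in 6 of 7 lines, and only in iG+A did they overlap, with 1943 and 1415 against 2753 and 1883 (0.46, adjusted p = 0.0501). That value ran from 0.18 to 0.73 when 1 library was left out and passed under 13 of 38 alternatives.

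In the lines without Atoh1 Rfx3 did not pass. Its changes were 0.35 in iGfi1 (1629 and 1497 against 1907 and 2067), 0.27 in iPou4f3 (1237 and 1523 against 1576 and 1741) and 0.36 in iG+P (1860.2 and 1805 against 2699 and 2038), with adjusted p of 0.168, 0.463 and 0.142. With the block, iG+A (adjusted p = 0.00276), iG+P (0.0135) and iGfi1 (0.0192) passed as well. The Dox groups ran from iAtoh1 (3156 ± 309, SD, n = 2) and iGPA (2841 ± 52.1) through iG+P (2369 ± 467), iP+A (2347 ± 112) and iG+A (2318 ± 616) to iGfi1 (1987 ± 113) and iPou4f3 (1659 ± 117). The top pair and the lowest group stood apart from their neighbours, and the libraries in between overlapped. Against all 14 untreated libraries as 1 control group, iG+A (0.57, adjusted p = 0.00229) and iG+P (0.61, adjusted p = 0.00133) passed too. The rise in iP+A was lost without its No Dox replicate 2 (0.61, adjusted p = 0.0677) or its Dox replicate 1 (0.67, adjusted p = 0.0591). Of 8 neuron markers (Tubb3, Dcx, Elavl3, Elavl4, Stmn2, Snap25, Syt1 and Nefl), 4 rose in iAtoh1, 8 in iP+A and 8 in iGPA by the adjusted p alone, and their summed level with Dox was 1749.9 to 2623, 15547 to 21083 and 5793 to 5958, against 647 to 1156, 620 to 933 and 382 to 553 without. In the other lines 3 rose in iPou4f3, iG+A and iG+P and none in iGfi1. Their part in the rise of Rfx3 was not tested.

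**Figure D3:**
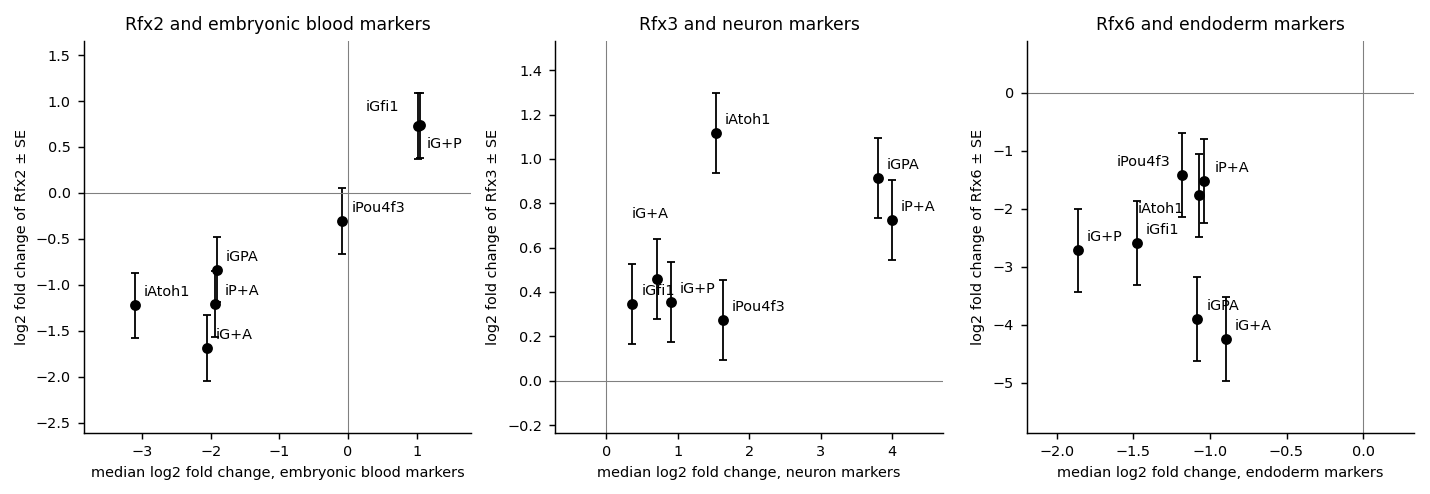
Log2 fold change with Dox of Rfx2, Rfx3 and Rfx6 (± SE, vertical axis) against the median log2 fold change of a marker list (horizontal axis) in the 7 lines. Rfx2 and the embryonic blood markers are both negative in the 4 lines with Atoh1 and both positive in iGfi1 and iG+P, whereas Rfx6 and the endoderm markers are negative in all 7.

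Rfx1, Rfx4 and Rfx7 passed the test in no line. Rfx1, expressed in most tissues, stood at 1187 to 1484 normalized counts without Dox and 1123 to 1425 with it, and its fold changes ran from −0.07 to 0.12 (SE 0.10, adjusted p from 0.414). Rfx7, the most abundant member, ran from 3493 to 4996 and from 3404 to 5112, with changes of −0.28 to 0.21 (SE 0.17, adjusted p from 0.181). Their Dox and No Dox libraries overlapped in 4 and 5 of 7 lines. Rfx4, the factor of the neural tube, was low at 35.4 to 88.5 without Dox and 42.9 to 90.8 with it, with changes of −0.34 to 0.57 (SE 0.33, adjusted p from 0.217). Its Dox libraries lay above the No Dox libraries in 4 lines and overlapped them in 3. Of 8 neural progenitor markers (Sox1, Sox2, Pax6, Nes, Hes5, Fabp7, Pax3 and Olig3), 6 rose in iG+A and in iGPA by the adjusted p alone, where the change of Rfx4 was 0.36 and 0.05, and 0 to 3 rose in the other lines. By the same rule 1 of the 8 fell in iG+A and 2 in iP+A.

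Rfx8, the other member of the family, was about as low as Rfx4 per kb. It stood at 44.1 and 33.6 normalized counts without Dox against 86.2 and 58.6 with it in iG+A (0.87, SE 0.34, adjusted p = 0.0497), and at 22.7 and 17.7 against 55.3 and 33.3 in iGPA (1.06, adjusted p = 0.0165). In both lines the Dox libraries lay above the No Dox libraries, and in the other 5 lines Rfx8 did not pass.

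**Figure D4:**
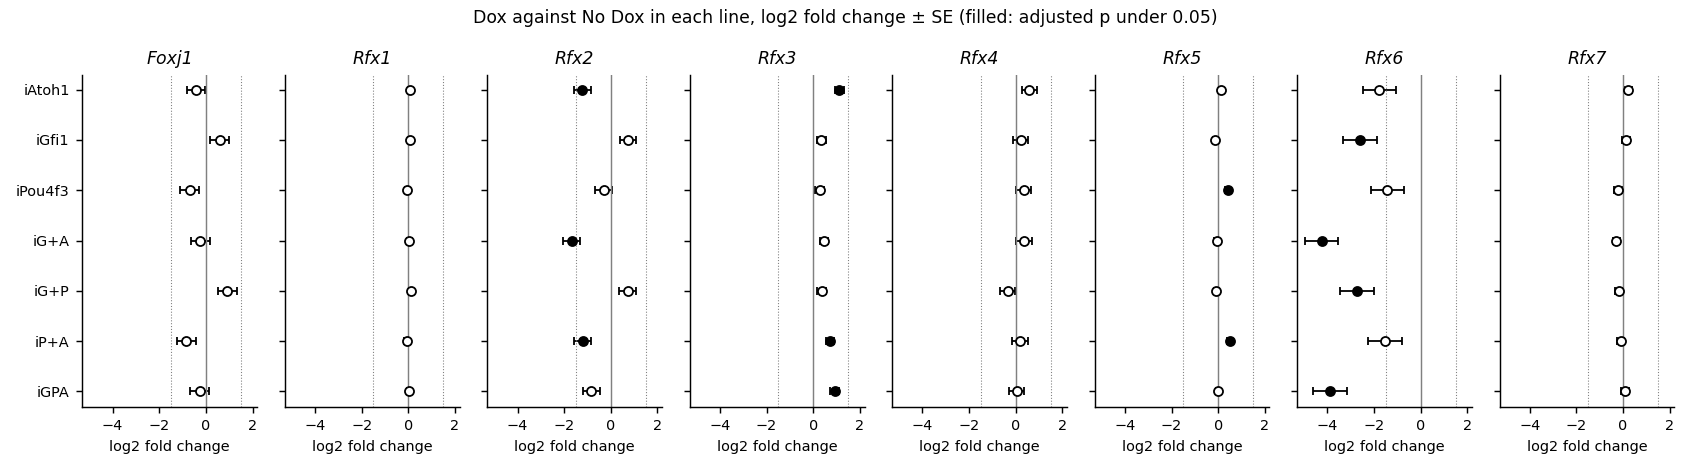
Log2 fold change with Dox (± SE) of each gene in each line, with filled points at an adjusted p under 0.05 and dotted lines at the fold threshold of 1.5. Only Rfx6 in 4 lines and Rfx2 in iG+A have filled points beyond a dotted line.

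Rfx5, the DNA-binding part of the complex that activates MHC class II genes, rose in the lines that carry Pou4f3 without Gfi1. In iP+A EBs the No Dox libraries held 754 and 665 normalized counts and the Dox libraries 993 and 991 (0.49, SE 0.10, adjusted p = 0.00168), and in iPou4f3 EBs 633 and 619 stood against 806 and 849 (0.40, adjusted p = 0.0277). These 4 Dox libraries were the highest of all 28, and the other 10 Dox libraries lay between 595 and 762, within or near the No Dox range of 613 to 754. In iG+P and iGPA, where Gfi1 is added to Pou4f3, the changes were −0.08 and −0.01. The difference between lines passed its own test, at −0.48 for iG+P against iPou4f3 (SE 0.14, adjusted p = 0.0262) and −0.50 for iGPA against iP+A (adjusted p = 0.0206). Of the neuron markers, 8 of 8 rose in iP+A and 3 of 8 in iPou4f3, but also 8 of 8 in iGPA, where Rfx5 did not pass, and their part in the rise of Rfx5 was not tested. Neither the rise in iPou4f3 (adjusted p 0.0972 to 0.176 without any 1 of its 4 libraries) nor that in iP+A (adjusted p = 0.0568 in a fit of that line alone) held under every alternative, and the differences between lines were lost without any 1 of 7 (iG+P against iPou4f3, all but Dox replicate 2 of iG+P; adjusted p 0.0528 to 0.0819) or 5 (iGPA against iP+A, all but No Dox replicate 1 of both lines and Dox replicate 1 of iGPA; adjusted p 0.0573 to 0.0885) of their 8 libraries. The iPou4f3 rise was also lost under quantile normalization (adjusted p = 0.0657) and in a fit of that line alone (0.146), and the iGPA against iP+A difference in a fit of these lines alone (0.0763). In the annotation the 3′ end of Rfx5 is overlapped on the other strand by B230398E01Rik, and since Kallisto at the default settings that the authors used does not take strand into account, reads of that stretch may come from either gene. Other genes on the opposite strand also overlap the 5′ end of Rfx1 (C330011M18Rik) and lie within Rfx3 (RP24-92P15.1 and RP24-92P15.2) and Rfx4 (Gm6613 and U6). Whether these share exons with the members was not examined.

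The partners of Rfx5 rose in partly other lines. Rfxap rose in iP+A (894 and 759.7 against 1382 and 1381, change 0.74, adjusted p = 1.51e-05), in iGPA (0.44, adjusted p = 0.00114), in iAtoh1 (0.31, adjusted p = 0.0255) and in iG+A (0.26, adjusted p = 0.0386), which are the 4 lines with Atoh1. Rfxank rose in iG+A (0.55, adjusted p = 0.00251) and iG+P (0.42, adjusted p = 0.0164). Ciita, the coactivator that the complex needs at MHC class II genes, stood at 7.96 to 74.5 normalized counts without Dox and 9 to 33.2 with it and passed in no line.

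Rfx6, the factor of gut endoderm and endocrine pancreas, had the largest changes of the 8 genes, and all were downward. In iG+A EBs the No Dox libraries held 71.6 and 269.6 normalized counts and the Dox libraries 9.01 and 4.44 (−4.25, SE 0.72, adjusted p = 0.000141). In iGPA EBs 236 and 90.5 stood against 3.73 and 19.6 (−3.90, adjusted p = 0.000235), in iG+P EBs 139.7 and 223 against 28.4 and 23.7 (−2.72, adjusted p = 0.00651), and in iGfi1 EBs 347 and 402 against 47.9 and 77.3 (−2.60, adjusted p = 0.0126). These are the 4 lines with Gfi1, and in each both Dox libraries lay below both No Dox libraries.

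The Dox libraries were also the lower ones in the 3 lines without Gfi1, where Rfx6 did not pass. It stood at 765 and 187 against 104 and 117 in iAtoh1 (−1.77, adjusted p = 0.0844), at 167 and 141 against 64.6 and 43.2 in iP+A (−1.52, adjusted p = 0.134) and at 141 and 207 against 94.8 and 41.5 in iPou4f3 (−1.43, adjusted p = 0.31), the last running from −2.01 without Dox replicate 1 of that line to −0.84 without Dox replicate 2. The mean Dox effect was lower by 1.79 in lines with Gfi1 than in lines without it (SE 0.55, adjusted p = 0.0158). Rfx6 also spread most among untreated EBs, from 71.6 to 765, with the highest and the lowest of these 14 libraries 10.7-fold apart. In iP+A, Rfx6 passed in a fit of that line alone (adjusted p = 0.044) and against all untreated libraries (−1.91, adjusted p = 0.0127). The iAtoh1 value rested on its No Dox libraries, at −0.76 (adjusted p = 0.591) without replicate 1, the library with 765, and at −2.78 (adjusted p = 0.0252) without replicate 2. The call in iGfi1 was lost without its No Dox replicate 1 (adjusted p = 0.0506), its No Dox replicate 2 (0.0776) or its Dox replicate 1 (0.114), and that in iG+P without its No Dox replicate 2 (0.0602), with fold changes of −2.70, −2.49, −2.26 and −2.38.

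Some endoderm genes fell in the same lines. On a list of 12 (among them Sox17, Foxa2, Gata4, Hnf4a, Afp and Ttr), which was added after the values of Rfx6 had been seen, 6 fell past the threshold in iG+P, 4 in both iAtoh1 and iGPA, 3 in iG+A, 2 in iGfi1 and 1 in both iP+A and iPou4f3, and none rose. Their median log2 fold change was −0.90 to −1.86, where the median of all genes was −0.03 to 0.02. The summed level over iGfi1, iG+A, iG+P and iGPA was 3544 to 5932 with Dox and 6532 to 11455 without. In iPou4f3 it was 5599.5 to 6076 against 8081 to 8501, and it overlapped between conditions in iAtoh1 and iP+A. Hnf4a, a defining gene of gut and liver endoderm, moved most like Rfx6 of this list. It fell in iG+P (−3.35, adjusted p = 8.03e-05), iG+A (−2.83), iGPA (−2.79), iGfi1 (−2.34) and iAtoh1 (−2.22), and stood at 84.8 to 228 normalized counts without Dox against 17.1 to 21.4 with it in iG+A and iGPA. The part of endoderm cells in the change of Rfx6 was not tested.

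The 9 differences between lines that differ by 1 factor, and the 3 averages over lines, use the same libraries as the values above. Each average sets the lines that carry a factor against those that do not. The other factors are more frequent among the lines that do not carry it, so an average does not separate the factor from the others. The Dox effect on Gfi1 RNA itself, for example, differed by −1.62 for lines with Atoh1 minus lines without it. Adding Atoh1 to Gfi1 shifted the Dox effect on Rfx2 by −2.42 (iG+A against iGfi1, SE 0.51, adjusted p = 0.00216), and Rfx2 was the 1 member that passed there, beside 26.5% of all genes. Adding it to Gfi1 and Pou4f3 shifted Rfx2 by −1.56 (iGPA against iG+P, adjusted p = 0.0431), again as the 1 member, beside 15.7%. The shift of −0.90 in iP+A against iPou4f3 did not pass (adjusted p = 0.45), nor did any other member there, beside 3.01%. The call in iGPA against iG+P was lost in a fit of these lines alone (adjusted p = 0.0804), without a trend of the variance (0.0632) and without any 1 of 9 libraries (0.0528 to 0.224), which were No Dox replicate 1 and both Dox replicates of iG+P, No Dox replicate 2 and Dox replicate 1 of iGPA, both No Dox replicates of iGfi1 and both Dox replicates of iPou4f3. Without Dox replicate 1 of iGPA the shift was −1.02. Averaged over lines, Atoh1 went with a lower Dox effect on Rfx2 (−1.63, SE 0.27, adjusted p = 0.000183) and a higher one on Rfx3 (0.48, SE 0.14, adjusted p = 0.0121), and these 2 of 8 members stand beside 32.3% of all genes. With the block, Foxj1 passed for Atoh1 over lines (−0.71, adjusted p = 0.0864, and 0.0378 with it), as did Rfx3 in iGPA against iG+P (0.56, 0.154 and 0.0149).

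Adding Gfi1 changed 1 member in 2 of its 3 comparisons, which was Rfx5 as given above, beside 17.9% (iG+P against iPou4f3) and 18.3% (iGPA against iP+A) of all genes, and none in iG+A against iAtoh1 (15.7%). With the replicate number as a block, Foxj1 (1.62, adjusted p = 0.0584, and 0.0228 with the block) and Rfx2 (1.03, 0.179 and 0.0383) passed as well in iG+P against iPou4f3, and Rfx3 passed in iG+A against iAtoh1 (−0.66, 0.0892 and 0.00635). For Rfx6 the 3 shifts were −2.47, −1.30 and −2.38, each with an SE of 1.02 and none past the test. On average over lines Gfi1 went with a lower Dox effect on Rfx5 (−0.41, SE 0.08, adjusted p = 0.000411) and on Rfx6 and a higher one on Foxj1, so that 3 of 8 members passed beside 35.8% of all genes, and Rfx2 passed with the block (0.65, adjusted p = 0.0738, and 0.011 with it). Adding Pou4f3 changed no member in iP+A against iAtoh1 (5.46% of all genes), iG+P against iGfi1 (3.45%) or iGPA against iG+A (4.19%), nor on average over lines (10%). Among the 7 untreated groups no member passed an F test (adjusted p 0.348 to 0.644), which 12.1% of all genes did.

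The genes most like each member over the 28 libraries were taken by Pearson's r of the log2 values, which libraries of 1 line and condition share in part. For Rfx6 they were Spink1 (r = 0.968), Hnf4a (0.949) and Dpp4 (0.948). For Rfx2 they were Nek2 (0.927), a kinase of the centrosome, Gtf2f1 (0.907), which lies 172.4 kb from Rfx2 on chromosome 17, and Pim1 (0.896). Rfx5 was most like Dixdc1 (0.908), Srrm3 (0.901) and Sorcs3 (0.898), and Rfx3 most like Pde1c (0.895), Zbtb18 (0.888) and Pcmtd2 (0.888). The closest gene to Foxj1 was Meltf (0.766), and those to Rfx4, Rfx1 and Rfx7 were Orm3 (0.692), Ube3b (0.658) and Eda2r (0.65). Among the members themselves the highest r was 0.417, between Rfx2 and Rfx6, and the lowest were −0.574 between Rfx3 and Rfx6 and −0.561 between Rfx2 and Rfx3.

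Genes of motile cilia, many of them targets of Foxj1 and RFX factors, had both rises and falls in 6 of 7 lines. Of 52 tested, between 2 and 11 rose and between 0 and 7 fell by the adjusted p alone in each line, with medians of 0.00 to 0.21. The counts up and down were 11 and 3 in iG+P (16.9% and 16.9% of all genes) and 10 and 7 in iGPA (23.7% and 22.3%). They were 7 and 6 in iG+A (21.6% and 19.7%), 7 and 4 in iGfi1 (12.4% and 14.1%) and 6 and 4 in iAtoh1 (11.4% and 11.7%). In iP+A 2 rose and 4 fell (13.8% and 11.1%), and in iPou4f3 2 rose (3.41%). These counts lie near or below the shares of all genes. Past the threshold, 5 rose and 1 fell in iG+P (5.16% and 5.36% of all genes), 3 rose in iGfi1 (2.15%) and 2 rose in iPou4f3 (1.47%). In iG+A 1 rose and 2 fell (7.35% and 4.95%), in iP+A 1 rose (4.7%), in iGPA 2 rose and 1 fell (8.65% and 5.31%), and none changed in iAtoh1. Dnaic2, an intermediate chain of the outer dynein arm, rose most, from 21.8 and 8.81 normalized counts to 1363 and 1904 in iGPA (6.75, SE 0.38, adjusted p = 2.23e-10), and in iG+P it went from 12.2 and 23 to 698 and 732 (5.33). Dnaaf1, a factor that assembles dynein arms, rose from 975 and 686 to 4028 and 6601 in iG+P (2.65, adjusted p = 9.68e-05), while in iGfi1 it went from 860.0 and 770.3 to 2705 and 2480.5 (1.67, adjusted p = 0.00801). It also rose in iGPA, from 814 and 842 to 1253 and 2604 (1.12, adjusted p = 0.0402), and fell in iAtoh1, from 451 and 775 to 160.02 and 358 (−1.30, adjusted p = 0.0363). Armc4, which docks outer dynein arms, rose by 2.24 in iG+P (adjusted p = 0.000151), while Pifo fell there (61.1 and 72.7 against 17.8 and 5.2, −2.65, adjusted p = 0.00264) and Spef1, a microtubule protein of the central pair, fell in iG+A (1206 and 1112 against 244 and 414, −1.86, adjusted p = 9.09e-06).

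Of 12 multiciliation genes tested, 1 rose past the threshold in iGfi1, iG+P, iP+A and iGPA (2.15%, 5.16%, 4.7% and 8.65% of all genes) and 1 fell in iAtoh1 (2.52%). By the adjusted p alone 2 rose and 4 fell in iGPA (23.7% and 22.3%), 2 and 3 in iP+A (13.8% and 11.1%) and 2 and 1 in iGfi1 (12.4% and 14.1%). By the same rule 1 rose and 2 fell in iG+A (21.6% and 19.7%) and in iG+P (16.9% and 16.9%), 1 rose in iPou4f3 (3.41%) and 3 fell in iAtoh1 (11.7%). The gene with the largest rise was Deup1, which builds the deuterosomes on which multiciliated cells make centrioles, from 5.08 and 9.97 to 165 and 99.2 normalized counts in iG+P (3.98, adjusted p = 3.11e-06). The one that fell was Myb (863 and 736 against 198 and 248 in iAtoh1, −1.84, adjusted p = 0.00172), which is also a gene of blood progenitors.

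Intraflagellar transport genes, of which 32 were tested, changed by small steps and never past the threshold. By the adjusted p alone 17 rose and 3 fell in iG+A, 8 rose in iAtoh1, 5 rose in iP+A, 9 rose and 6 fell in iGPA, 1 rose in iPou4f3, and 8 fell in both iGfi1 (1 rose) and iG+P (3 rose). Of all genes, 21.6% rose and 19.7% fell in iG+A, 11.4% and 11.7% in iAtoh1, and 13.8% and 11.1% in iP+A. These shares were 23.7% and 22.3% in iGPA, 3.41% and 1.31% in iPou4f3, 12.4% and 14.1% in iGfi1, and 16.9% and 16.9% in iG+P. Their median log2 fold change was highest in iG+A (0.31) and iAtoh1 (0.19) and lowest in iGfi1 (−0.22). The 35 genes of the BBSome and transition zone gave 13 rises and 2 falls in iG+A, 12 and 3 in iGPA, 3 and 0 in iAtoh1, 6 and 0 in iP+A, 1 and 0 in iPou4f3, 7 and 6 in iG+P, and 4 and 9 in iGfi1. Against the shares of all genes just given, the rises in iG+A lay above and those in iAtoh1 below, and both counts in iG+P lay near. Past the threshold only Bbs7 changed, a BBSome subunit that fell in iG+P (1286 and 1084 against 399 and 369, −1.62, adjusted p = 1.21e-05).

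**Figure D5:**
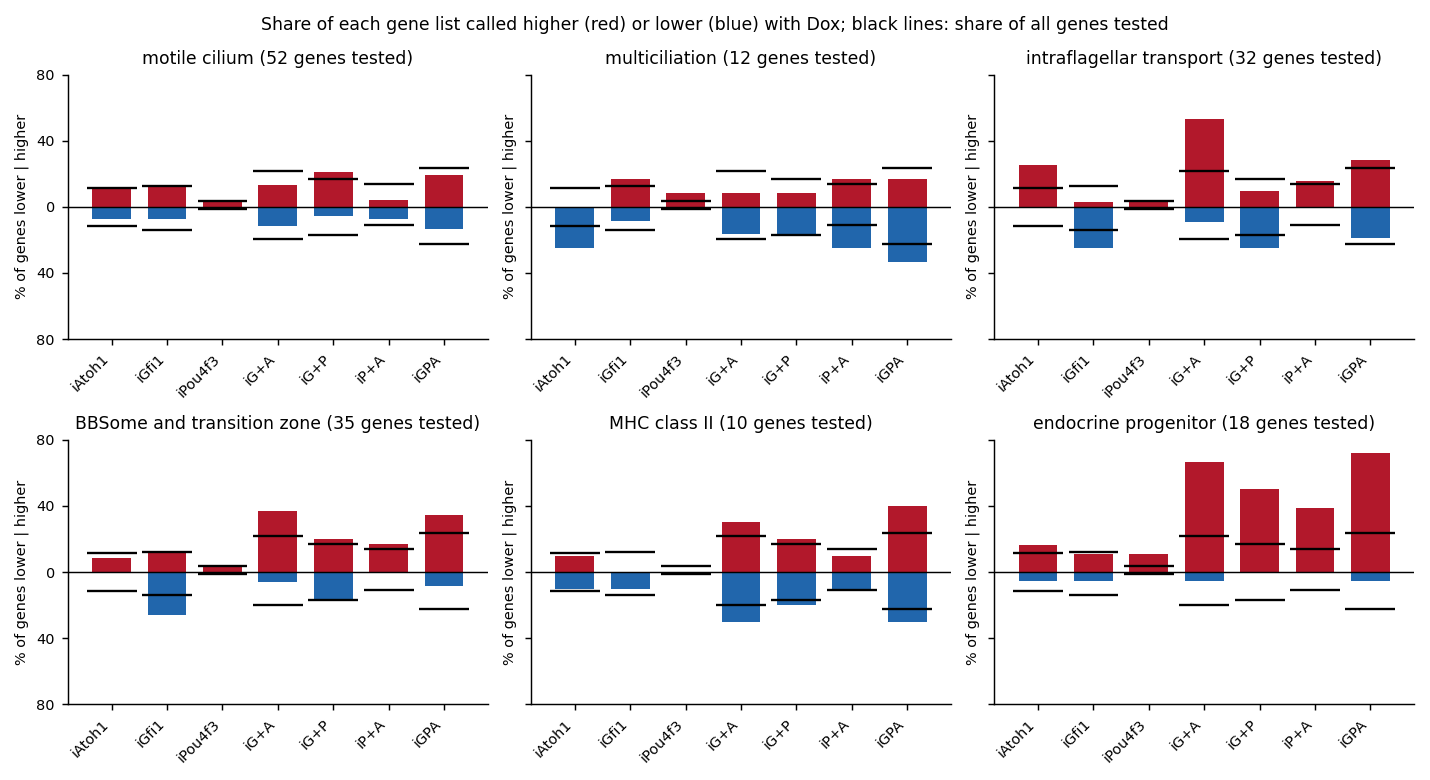
Share of the tested genes of 6 lists that were higher (red, up) or lower (blue, down) with Dox at an adjusted p under 0.05 in each line, with black lines at the share of all genes tested. The tallest red bar of the intraflagellar transport genes is in iG+A, where 17 of 32 rose, and their blue bars are tallest in iGfi1 and iG+P, where 8 of 32 fell.

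The RFX5 complex serves genes of MHC class I and II. The list of 10 tested genes also holds Rfxap, Rfxank and Ciita, whose values are given above. Of the 10, B2m, the light chain of MHC class I, rose past the threshold in iGPA (1644 and 1575 against 5199 and 4119, 1.52, adjusted p = 1.32e-07), and 3 fell in iG+A, among them Cd74, the invariant chain (55.7 and 32.5 against 4.25 and 14.6, −2.26, adjusted p = 0.00214), and H2-DMb1 (14.6 and 29.9 against 3.34 and 3.21, −2.36, adjusted p = 0.00184). H2-Eb1 stood at 6.28 and 5.04 without Dox in iGPA and is listed at 0 in both Dox libraries. Where Rfx5 rose, none of the 10 changed past the threshold in iPou4f3 and 1, H2-Eb1, fell in iP+A, where Rfxap was the only 1 to rise by the adjusted p alone. Of all genes, 8.65% rose past the threshold in iGPA, 4.95% fell in iG+A and 2.58% fell in iP+A. Over the 7 lines 9 falls on the list passed the threshold, and with a filter of 50 normalized counts 1 did. B2m was just past the fold threshold, which it no longer reached without No Dox replicate 2 or Dox replicate 1 of iGPA (1.36 to 1.69 without any 1 library).

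Endocrine genes rose most often in iGPA and iG+A, the lines with the largest falls of Rfx6. Of 18 tested, 13 rose past the threshold in iGPA and 12 in iG+A, against 8 in iG+P, 6 in iP+A, 3 in iAtoh1, 2 in iGfi1 and 1 in iPou4f3. The shares of all genes that did were 8.65%, 7.35%, 5.16%, 4.7%, 2.89%, 2.15% and 1.47%, so that the order of lines is that of all genes. Insm1, a zinc finger factor of endocrine cells and neurons, rose from 14 and 8.84 normalized counts to 5822 and 6019 in iGPA (8.93, adjusted p = 1.57e-10), and in iG+A it went from 3.48 and 14.6 to 2233 and 1689 (7.86). Sst, the hormone somatostatin, rose in iGPA from 6.11 and 3.92 to 4774 and 4949.8 (9.68, adjusted p = 8.51e-09), in iG+A from 1.16 and 3.37 to 1826 and 2079 (9.31), and stood at 3.08 and 4.57 against 9.03 and 5.74 in iP+A. Neurog3, which acts upstream of the endocrine lineage in the pancreas, was at 0 to 7.22 in all libraries, and Pdx1 stood at 4.37 and 4.91 without Dox in iGPA and is listed at 0 with it. Insm1 and Sst are made by neurons as well. Past the threshold, 7 of 8 neuron markers rose in iGPA, 3 in iG+A and all 8 in iP+A, where their summed level was the highest of all lines and Sst stayed low, and their part in these rises was not tested.

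The remaining marker lists give the other cells that these EBs could hold. Of 8 fibroblast and mesenchyme markers 7 fell past the threshold in iGPA, 5 in iG+P, 4 in iG+A, 3 in iAtoh1, 2 in iGfi1, 1 in iP+A and 0 in iPou4f3. Of 8 pluripotency markers 6 fell in iP+A, 4 in iG+A and in iGPA, 2 in iG+P and 0 in the others. Of 6 node and notochord markers tested, 1 rose in iAtoh1 and iG+P, 2 rose in iG+A, 2 fell in iG+P and 1 fell in iGPA.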

How the data were processed

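RNA-seq was done on 28 libraries, with 2 replicates for each of 7 lines with and without Dox. Per the labels and the study's methods, the authors trimmed reads with cutadapt, quantified UCSC knownGene transcripts of mm9 with Kallisto, summed them per gene with tximport and normalized with DESeq2, and the deposited values are log2(normalized count + 1). They are not raw counts. Estimated depth was 30300000 to 48000000 reads per library.

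The 16837 genes that reached 10 normalized counts in 2 or more libraries went into limma 3.58.1 in R 4.3.3 (14 groups and 14 residual degrees of freedom, with an intensity trend), with Benjamini-Hochberg adjustment over all of them. All tests were two-sided, and the fit was also run on simulated data with independent replicates. Those data held no clone or pairing effect and no changed genes at low counts, so they cannot show how the fit performs there. Replicates are clones, so p-values measure the spread between them. Deviations from group means of libraries with equal replicate number correlated at 0.1028 to 0.2463 in the 7 lines. The main fit, which gave the adjusted p-values unless stated otherwise, did not use the replicate number. Fits with it as a block (7 residual degrees of freedom) are given where they change a call. That an equal number marks the same clone is not given in the sources used here. Promoter windows are from RefSeq, and coordinates are of NCBIM37 (mm9).

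The members and lists were chosen with earlier results of these data known, and the endoderm list was added last, after the values of Rfx6 had been seen. Named list genes were up to 3 with the largest rise and up to 3 with the largest fall per list over the 7 lines, among those past the threshold with groups that did not overlap, and the text gives some of them. Neurog3, Pdx1 and H2-Eb1, and values of named genes in further lines, were added after their values were seen. The alternatives were other pseudocounts, filters, normalizations, thresholds, control groups and variance models, the block, and leaving out each library. Some genes of these lists are not reported here by name.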

Additional observations from a re-analysis of the deposited data

Results flagged for a closer look

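In all, 9 differences between lines passed their own test, limma with Benjamini-Hochberg adjustment over all genes. For Rfx2 the Dox effect differed by −2.42 between iG+A and iGfi1 (iG+A minus iGfi1) and by −1.56 between iGPA and iG+P, and by −1.63 between lines with and without Atoh1, each the first minus the second. For Rfx3 it was higher by 0.48 in lines with Atoh1. For Rfx5 the difference was −0.48 for iG+P minus iPou4f3, −0.50 for iGPA minus iP+A and −0.41 for lines with Gfi1 minus lines without it. For lines with Gfi1 minus lines without it, the difference was −1.79 for Rfx6 and 0.90 for Foxj1. These comparisons share libraries and are not independent of each other. The averages over lines do not separate a factor from the others, which are more frequent among the lines that do not carry it.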

How the results depend on the processing

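Each of the 56 values of a member in a line was recomputed under 38 alternatives. Of the 12 calls at the adjusted p, 5 held under all of them (Rfx3 in iAtoh1 and iGPA, Rfx2 in iG+A, Rfx6 in iG+A and iGPA) and 7 were lost under at least 1, and 17 values, none of them called, changed sign under at least 1. The cause was not tested. With the replicate number as a block no call was lost and 19 passed, and the members past the threshold in iG+P against iPou4f3 went from 0 to 1 (Foxj1, with a difference of 1.62).

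Under quantile normalization the change was −0.0097 for Rfx1 in iG+A, −0.035 for Rfx1 in iGPA and −0.35 for Rfx4 in iGPA. Against all untreated libraries Rfx1 was at −0.016 in iGfi1, 0.0071 in iPou4f3, 0.10 in iP+A and −0.017 in iGPA, Rfx4 at −0.25 in iPou4f3, Rfx5 at 0.037 in iG+P and Rfx7 at −0.14 in iGPA. Leaving out 1 library moved the following across 0. Rfx1 ran from −0.18 to 0.066 in iPou4f3, −0.022 to 0.088 in iG+A and −0.14 to 0.19 in iGPA. Rfx4 ran from −0.83 to 0.16 in iG+P, −0.10 to 0.46 in iP+A and −0.33 to 0.43 in iGPA. Rfx5 ran from −0.15 to 0.019 in iG+A and −0.090 to 0.062 in iGPA, and Foxj1 from −1.02 to 0.51 in iG+A. Rfx7 ran from −0.038 to 0.45 in iAtoh1, −0.35 to 0.0063 in iG+P, −0.31 to 0.10 in iP+A and −0.026 to 0.18 in iGPA.

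The number of members past the threshold was 0 in iAtoh1 but 2 at a log2 fold of 1 or by the adjusted p alone. In iP+A it was 0 but 1 at a fold of 1, 1 in a fit of the line alone, 1 against all untreated libraries and 3 by the adjusted p alone. By the adjusted p alone it went from 0 to 1 in iPou4f3, from 1 to 2 in iGPA, from 0 to 1 in iG+P against iPou4f3 and in iGPA against iP+A, from 1 to 2 for Atoh1 over lines and from 1 to 3 for Gfi1 over lines. It went from 2 to 1 in iG+A against all untreated libraries, and from 1 to 0 in iGPA against iG+P in a fit of these lines alone or without a trend. Leaving out 1 library gave 0 to 1 in iAtoh1, iGfi1, iG+P, iP+A, in iG+A against iAtoh1, iG+P against iPou4f3, iGPA against iP+A, iGPA against iG+P and for Atoh1 and Gfi1 over lines, and 1 to 2 in iG+A and in iG+A against iGfi1.

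Calls past the threshold summed over the 7 lines were 14 up and 4 down for motile cilium genes, against 32 and 10 at a fold of 1, 45 and 28 by the adjusted p alone and 8 down under quantile normalization. Multiciliation genes gave 4 up and 1 down, against 2 up with a pseudocount of 5, 2 down at a fold of 1, 9 and 15 by the adjusted p alone and 1 to 3 down without 1 library. Intraflagellar transport genes gave 0 and 0, against 1 and 1 at a fold of 1 and 44 and 25 by the adjusted p alone. BBSome and transition zone genes gave 0 up and 1 down, against 7 and 2 at a fold of 1, 46 and 20 by the adjusted p alone, 2 down under quantile normalization, 0 against all untreated libraries and 0 to 2 down without 1 library. The MHC list, which also holds Rfxap, Rfxank and Ciita, gave 1 up (B2m, of class I) and 9 down, against 5 down with a pseudocount of 5, 1 with a filter of 50 normalized counts, 4 in fits of each line alone, 0 up against all untreated libraries, 2 up at a fold of 1, 11 up by the adjusted p alone (Rfxap in 4 lines and Rfxank in 2 among them) and 0 to 1 up without 1 library. Endocrine genes gave 45 up, which no alternative moved by over 1.5 times, and 1 down, against 0 with a pseudocount of 5 or a filter of 50, 2 with no filter, quantile normalization, fits of each line alone, all untreated libraries, no trend or a fold of 1, 4 by the adjusted p alone and 1 to 3 without 1 library.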
